A study of Homo sapiens with 6 samples.

Results

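The genes described here are 41 components of macroautophagy, the route by which cells enclose cytoplasm in a membrane and deliver it to the lysosome. They comprise the ATG proteins, the ULK kinase and class III phosphatidylinositol 3-kinase complexes, the LC3 family, the cargo receptors and the transcription factors TFEB and TFE3. They were taken by symbol from a table of read counts by their known role, and all 41 were found among its 23368 gene symbols. RNA was measured in HCT116 cells, an established human colon cancer line, in 3 libraries treated with an siRNA against ADNP (siADNP) and 3 treated with a control siRNA (siControl). ADNP is a DNA-binding protein that acts on chromatin, and the comparison asks which of these transcripts differ when it is depleted. All libraries come from the same line and from total RNA. The labels give neither the time after transfection nor the siRNA sequences. No source states whether the 3 samples of a group were separate cultures. The p-values set the difference between the groups against the variation within them, and some or all of that variation may be technical.

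Depletion was seen in every library. ADNP had 46.7, 55.3 and 59.8 CPM in the siADNP libraries, against 171, 155 and 167 CPM in the siControl libraries, or 32.9% of control (log2 fold change -1.61 ± 0.066, edgeR adjusted p = 2.62e-20). CPM are gene reads scaled to a common library size by the TMM method. Gene reads ranged from 7396771 to 8726017 in the siADNP libraries and from 8282290 to 10265175 in the siControl libraries. They made up 26.4% to 27.2% of all reads in the siADNP libraries and 27.7% to 28.3% in the siControl libraries. Reads assigned to no counted feature took 54.4% to 55.7% with siADNP and 53.5% to 54.3% with siControl. Ambiguous reads were 0.455% to 0.479% with siADNP and 0.486% to 0.5001% with siControl. These shares separate the groups, and their part in the results was not tested. Of 8 colon epithelial markers, 7 were detected, with a summed level of 3068 to 3284 CPM in siADNP and 3171 to 3237 CPM in siControl libraries, and VIL1 had no reads in either group. Fibroblast markers summed to 7.59 to 10.3 CPM in siADNP and 7.48 to 8.20 CPM in siControl libraries, with DCN and LUM at 0 reads in all 6. Blood cell markers summed to 9.40 to 10.5 CPM with siADNP and 7.11 to 7.85 CPM with siControl, nearly all of it from CD68.

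Autophagy starts when the ULK kinase complex is activated and the class III PI 3-kinase complex marks a membrane site with its lipid product. WIPI proteins read that mark, ATG2 and ATG9 supply lipid, and a ubiquitin-like conjugation cascade attaches LC3 and GABARAP proteins to the growing membrane. Cargo receptors such as SQSTM1 bind both the cargo and LC3, and TFEB and TFE3 drive the expression of autophagy and lysosome genes.

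Of the 39 members with enough reads to test, 14 fell, 1 rose and 24 did not pass at an adjusted p under 0.05 (edgeR quasi-likelihood test, adjusted over 12489 genes). Over all genes tested, 28.3% were called, 13.7% lower and 14.6% higher, so the members' 35.9% lower stands above the share over all genes and their 2.56% higher below it. The median log2 fold change was -0.15 for the members and -0.0013 for all genes, and 31 of 39 members had a value under 0. The differences are small: those called lower ran from -0.68 to -0.16, with a median of -0.27, beside -0.28 for all genes called lower. In bulk RNA, a lower level in every cell and a loss from some of the cells cannot be told apart.

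The groups did not overlap in 25 of the 39 members, 21 of them lower and 4 higher in every siADNP library, where 20.7% of all genes were lower without overlap and 20.1% higher. Together the 41 genes took 0.210%, 0.217% and 0.215% of gene reads in the siADNP libraries, against 0.238%, 0.247% and 0.244% in the siControl libraries. The number called lower depended on the test: DESeq2's Wald test called 7 members lower and 1 higher, where it called 8.88% and 9.11% of all genes, and edgeR called 9 lower without siControl replicate 2. All 7 and all 9 were among the 14.

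**Figure D1:**
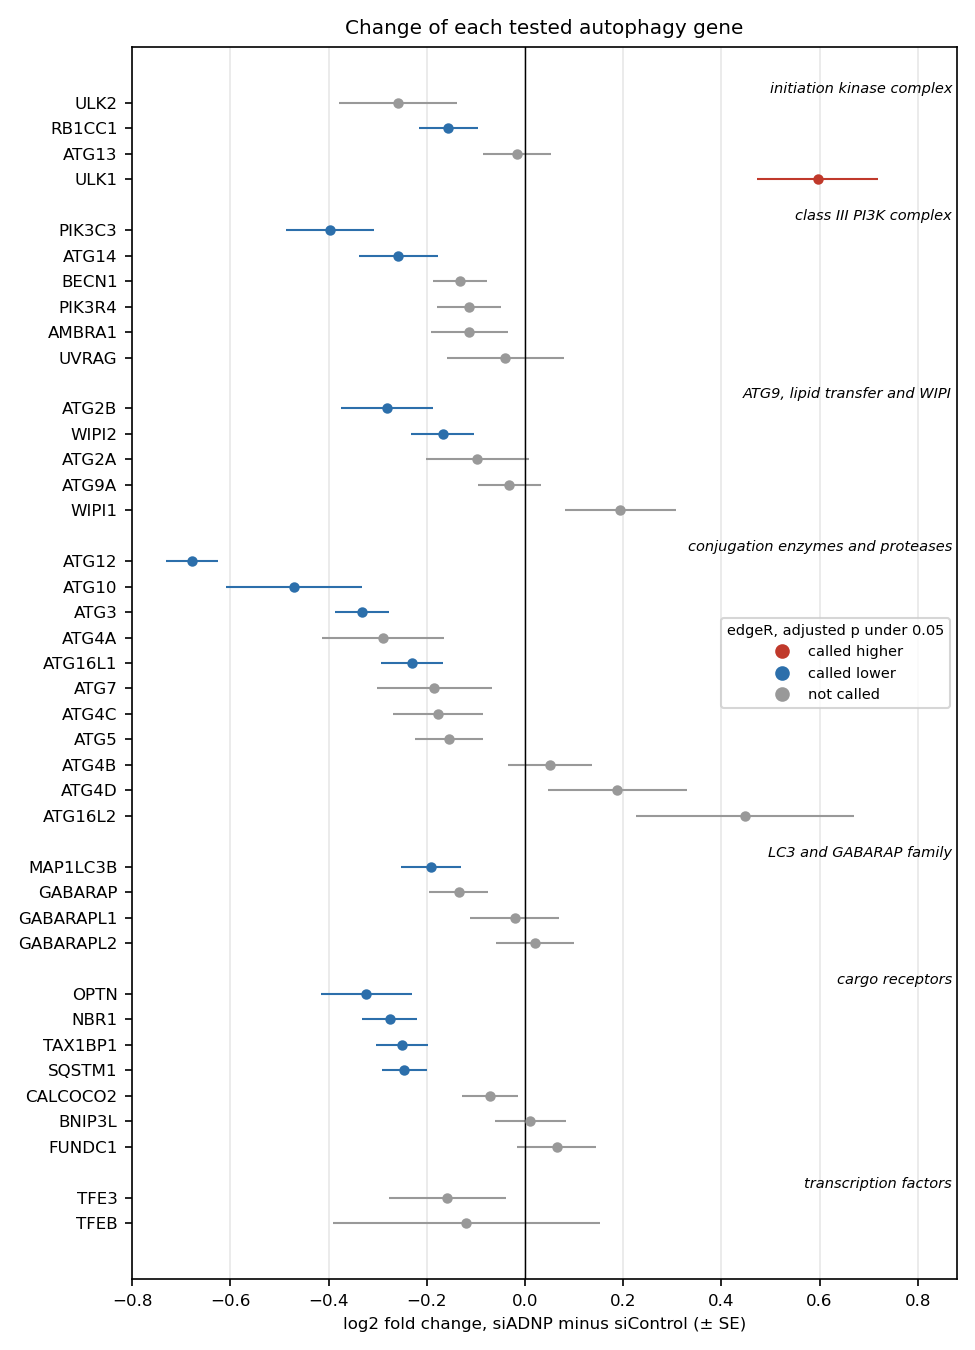
Log2 fold change (siADNP minus siControl) with its standard error for the 39 tested members, grouped by role, with 3 libraries in each group. Blue points (14) were called lower, the red point (ULK1) was called higher and the 24 grey points did not pass; the farthest to the left is ATG12 at -0.68.

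The conjugation machinery held the largest fall. ATG12, the ubiquitin-like protein that is joined to ATG5, had 107, 115 and 113 CPM in the siADNP libraries, against 175, 179 and 182 CPM in the siControl libraries. Its lowest control library lay well above its highest siADNP library. The means were 112 ± 4.29 CPM with siADNP and 179 ± 3.75 CPM with siControl (SD, n = 3 each), which puts ATG12 at 62.5% of control (log2 fold change -0.68 ± 0.053, edgeR adjusted p = 1.53e-12). ATG3, the enzyme that transfers LC3 to its lipid, had 117, 103 and 112 CPM in the siADNP libraries, against 138, 141 and 140.3 CPM in the siControl libraries. ATG3 fell to 79.4% of control, without overlap between the groups (log2 fold change -0.33 ± 0.055, edgeR adjusted p = 1.54e-05). ATG10, the transfer enzyme for ATG12 itself, was far less abundant, with 9.25, 9.06 and 8.27 CPM in the siADNP libraries, against 11.2, 13.2 and 12.4 CPM in the siControl libraries. All 3 siADNP libraries were below all 3 controls, and ATG10 stood at 72.2% of control (log2 fold change -0.47 ± 0.14, edgeR adjusted p = 0.00939). That call ended in DESeq2's Wald test (adjusted p = 0.0692) and without siControl replicate 2 (0.0583), with adjusted p from 0.00596 to 0.0692 over 16 alternatives. Exons of RPS23, a ribosomal protein gene on the opposite strand, cover 6.86% of the exonic bases of ATG10 in GENCODE. RPS23 was far more abundant, with 894 CPM with siADNP against 995 CPM with siControl, and fell with overlapping groups (log2 fold change -0.16 ± 0.053, edgeR adjusted p = 0.0250); whether its reads enter the ATG10 value was not tested. ATG16L1, which directs the ATG12 conjugate to the membrane, had 63.96, 65.5 and 62.8 CPM in the siADNP libraries, against 77.4, 76.1 and 71.9 CPM in the siControl libraries. Its log2 fold change was -0.23 ± 0.063 (edgeR adjusted p = 0.00509), again with no overlap.

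The 5' ends of ATG12 and of AP3S1, a subunit of the AP3 adaptor complex of endosomal sorting, lie close together on opposite strands. The RefSeq table (GRCh38.p14) puts the start of AP3S1 381 bases from that of ATG12, with transcription running apart. The sequence is shown because ATG12 had the largest fall among the members and its neighbour was lower too. It covers 250 bases before and 50 bases after the ATG12 start at chr5:115841516-115841815, minus strand, 5' to 3', and the capitals mark the 120 bases that also lie in the corresponding 300-base window of AP3S1.
ATG12 promoter: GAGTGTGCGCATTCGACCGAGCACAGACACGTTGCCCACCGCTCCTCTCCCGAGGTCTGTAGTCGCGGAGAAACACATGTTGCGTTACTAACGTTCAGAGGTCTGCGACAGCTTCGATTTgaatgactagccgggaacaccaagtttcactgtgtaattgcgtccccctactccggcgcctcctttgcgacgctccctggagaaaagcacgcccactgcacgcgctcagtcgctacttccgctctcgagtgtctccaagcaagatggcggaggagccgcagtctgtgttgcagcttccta
AP3S1 had 294, 297 and 308 CPM in the siADNP libraries, against 440.0, 432 and 429 CPM in the siControl libraries. It fell to 69.03% of control, with a log2 fold change of -0.53 ± 0.047 (edgeR adjusted p = 3.33e-11), beside -0.68 ± 0.053 for ATG12. In a GENCODE release 29 annotation, exons of both genes share 378 bases, or 4.25% of the exonic bases of ATG12, and the strand setting of the counting is not given in the sources used here. How reads in the shared bases were assigned was not tested.

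The other conjugation genes did not pass. ATG5, the acceptor of ATG12, had 50.6, 55.04 and 50.03 CPM in the siADNP libraries, against 55.9, 55.97 and 61.97 CPM in the siControl libraries. The groups just failed to overlap, and the log2 fold change was -0.15 ± 0.069 (edgeR adjusted p = 0.0934). ATG7, which activates both ubiquitin-like proteins, had 13.5, 14.8 and 14.4 CPM in the siADNP libraries, against 15.02, 17.5 and 15.9 CPM in the siControl libraries. The ATG7 groups did not overlap, and the log2 fold change was -0.18 ± 0.12 (edgeR adjusted p = 0.250). The ATG4 proteases, which process LC3 and release it from lipid, had log2 fold changes of -0.29 for ATG4A, -0.18 for ATG4C, 0.050 for ATG4B and 0.19 for ATG4D. ATG4A and ATG4C were lower in every siADNP library and missed the threshold (edgeR adjusted p = 0.0783 and 0.147). ATG16L2, a paralogue of ATG16L1, was near the lower end of what could be tested, with 5.52, 3.74 and 4.61 CPM in the siADNP libraries, against 3.36, 3.34 and 3.38 CPM in the siControl libraries. Every siADNP library was above every control, but siADNP replicate 1 lay well above replicate 2, and the log2 fold change of 0.45 ± 0.22 did not pass (edgeR adjusted p = 0.131). Adjusted for transcript length, as RPKM on the longest annotated transcript, ATG3 and ATG12 were the most abundant of the conjugation genes. ATG3 had 36.9 RPKM with siADNP and 46.4 RPKM with siControl, and ATG12 25.8 RPKM with siADNP and 41.2 RPKM with siControl. ATG5 had 16.1 RPKM with siADNP and 18.02 RPKM with siControl, so the control level of ATG12 was above that of ATG5 and stayed above it with siADNP.

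**Figure D2:**
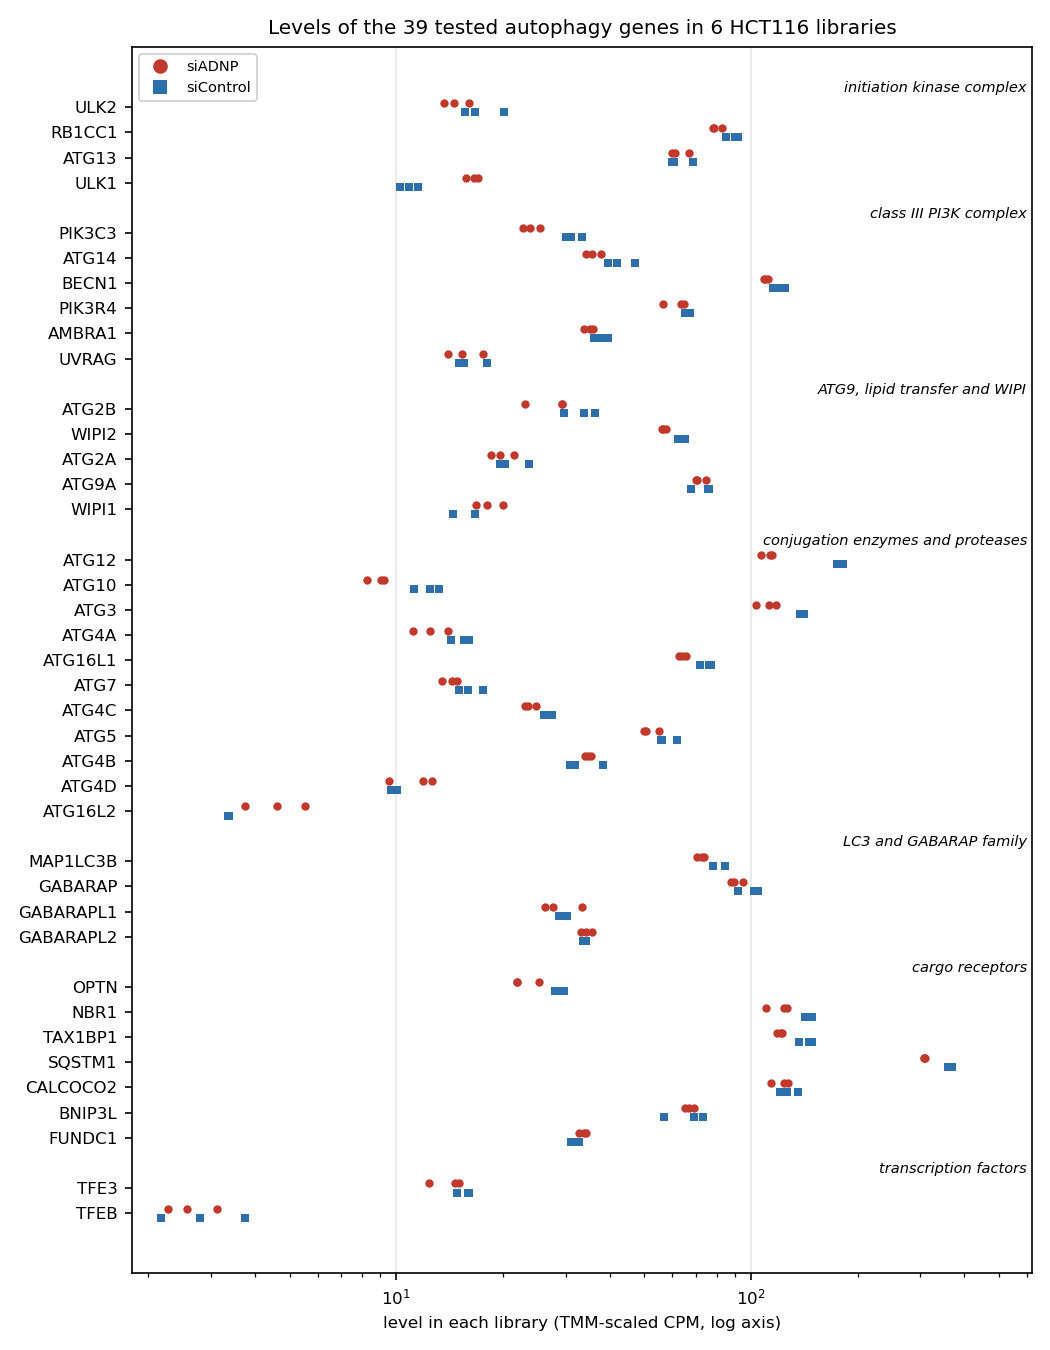
Level of each tested member in each of the 6 libraries, in TMM-scaled CPM on a log axis, with siADNP as red circles above siControl as blue squares in each row. SQSTM1 is the most abundant, at 307 to 309 CPM with siADNP and 359.9 to 368 CPM with siControl, and the replicates of a group mostly lie closer together than the groups do for ATG12, ATG3 and ULK1.

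In the initiation complex, ULK1 was the only member called higher. ULK1, a kinase that starts autophagosome formation, had 16.95, 16.5 and 15.7 CPM in the siADNP libraries, against 11.5, 10.2 and 10.9 CPM in the siControl libraries. All siADNP libraries were above all controls. The means were 16.4 ± 0.624 CPM with siADNP and 10.9 ± 0.659 CPM with siControl (SD, n = 3 each), a 1.51-fold rise (log2 fold change 0.60 ± 0.12, edgeR adjusted p = 3.00e-04), and the call held in all 16 alternatives, with adjusted p between 6.77e-05 and 0.0115. For its paralogue ULK2 the groups overlapped, and the log2 fold change of -0.26 ± 0.12 did not pass. Per length, ULK1 had 3.09 RPKM with siADNP and 2.05 RPKM with siControl, and ULK2 2.45 RPKM with siADNP and 2.90 RPKM with siControl. RB1CC1, the scaffold of the complex also known as FIP200, had 78.5, 83.1 and 77.95 CPM in the siADNP libraries, against 85.3, 89.9 and 91.99 CPM in the siControl libraries. It was lower in every siADNP library, by a small margin (log2 fold change -0.16 ± 0.060, edgeR adjusted p = 0.0466). The call for RB1CC1 ended in 10 of 16 alternatives, among them DESeq2's Wald test (0.138), upper-quartile scaling (0.0965), a GC correction (0.330), the replicate block (0.0626) and the leaving out of siADNP replicate 1 or 3 or siControl replicate 2 or 3, over a range of 0.0205 to 0.362. ATG13, the adaptor that links the kinase to the scaffold, had a log2 fold change of -0.016 ± 0.068.

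Within the class III PI 3-kinase complex, the catalytic subunit and ATG14 fell. PIK3C3, the lipid kinase VPS34, had 23.9, 22.8 and 25.4 CPM in the siADNP libraries, against 31.1, 33.3 and 30.02 CPM in the siControl libraries. It stood at 75.9% of control with no overlap between the groups (log2 fold change -0.40 ± 0.089, edgeR adjusted p = 8.29e-04). ATG14, the subunit that directs the kinase to autophagy, had 34.2, 35.7 and 37.7 CPM in the siADNP libraries, against 46.97, 42.00 and 39.4 CPM in the siControl libraries. Here the highest siADNP library came close to the lowest control, and the log2 fold change was -0.26 ± 0.080 (edgeR adjusted p = 0.0136). That call ended in DESeq2's Wald test (0.0771), without siADNP replicate 1 (0.0632) and without siControl replicate 1 (0.125), over a range of 0.00619 to 0.125. BECN1, the regulatory subunit beclin, had 112, 109.7 and 109 CPM in the siADNP libraries, against 125, 122 and 116 CPM in the siControl libraries. BECN1 was lower in every siADNP library, but its log2 fold change of -0.13 ± 0.054 did not pass (edgeR adjusted p = 0.0642). The pseudokinase subunit PIK3R4 and the beclin regulator AMBRA1 were also lower without overlap and did not pass, with log2 fold changes of -0.11 and -0.11. UVRAG, which replaces ATG14 in the endosomal form of the complex, had -0.040, with overlapping groups.

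Among the genes of lipid supply and membrane recognition, 2 of 5 tested members fell by small amounts, where 13.7% of all genes were called lower. Both calls ended under several alternatives. ATG2B, a lipid transfer protein, had 29.3, 29.3 and 23.05 CPM in the siADNP libraries, against 29.7, 33.7 and 36.3 CPM in the siControl libraries. The groups nearly met, and siADNP replicate 3 was the lowest (log2 fold change -0.28 ± 0.095, edgeR adjusted p = 0.0232). The ATG2B call ended in DESeq2's Wald test (0.104), without siADNP replicate 3 (0.197), siControl replicate 2 (0.0679) or siControl replicate 3 (0.125), and with the GC correction and replicate block together (0.0655), over a range of 0.00964 to 0.197. WIPI2, a reader of the kinase's lipid product, had 56.4, 57.5 and 56.3 CPM in the siADNP libraries, against 62.2, 65.1 and 63.8 CPM in the siControl libraries. Its groups were separate, but the log2 fold change of -0.17 ± 0.064 lay at the threshold (edgeR adjusted p = 0.0476), and the call ended in 11 of 16 alternatives, including each of the 6 that left out a library, over a range of 0.00653 to 0.163. Its paralogue WIPI1 was higher in every siADNP library, by a narrow margin, and did not pass (log2 fold change 0.19 ± 0.11, edgeR adjusted p = 0.206). ARSG, a lysosomal sulfatase gene on the opposite strand whose exons cover 24.3% of the exonic bases of WIPI1 in GENCODE, rose with a log2 fold change of 0.51 ± 0.12 (edgeR adjusted p = 8.16e-04), and whether its reads enter the WIPI1 value was not tested. ATG9A, the scramblase of ATG9 vesicles, and ATG2A had log2 fold changes of -0.032 and -0.10. ATG9B could not be tested, with 4, 1 and 2 reads in siADNP replicates 1 to 3, against 1, 5 and 2 in siControl replicates 1 to 3.

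Of the LC3 and GABARAP family, the ubiquitin-like proteins that coat the autophagosome, only MAP1LC3B passed. MAP1LC3B had 72.6, 70.6 and 73.6 CPM in the siADNP libraries, against 84.5, 84.3 and 78.1 CPM in the siControl libraries. All siADNP libraries were below all controls, and the level stood at 87.6% of control (log2 fold change -0.19 ± 0.061, edgeR adjusted p = 0.0167). The call ended in DESeq2's Wald test (0.0694), without siADNP replicate 2 (0.0595), without siControl replicate 1 (0.0737) and without siControl replicate 2 (0.0757), over a range of 0.00834 to 0.0757. A processed copy of MAP1LC3B is annotated in GENCODE, as are copies of ATG3, ATG4A, ATG12, BECN1 and SQSTM1, and reads shared with such copies make their values less certain. For GABARAP the groups overlapped, and the log2 fold change of -0.13 ± 0.060 did not pass. GABARAPL1 and GABARAPL2 had log2 fold changes of -0.021 ± 0.091 and 0.021 ± 0.080, with overlapping groups. MAP1LC3A had a single read, in siControl replicate 1, and was not tested. Per length, GABARAP was the most abundant of the family, with 55.6 RPKM with siADNP and 60.97 RPKM with siControl. MAP1LC3B followed with 23.4 RPKM with siADNP and 26.7 RPKM with siControl, then GABARAPL2 with 15.1 RPKM with siADNP and 14.9 RPKM with siControl and GABARAPL1 with 9.05 RPKM with siADNP and 9.14 RPKM with siControl.

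Of the 7 cargo receptors, 4 fell and 3 did not pass, where 13.7% of all genes were called lower. SQSTM1, known as p62, was the most abundant member, with 307, 309 and 307 CPM in the siADNP libraries, against 359.9, 368 and 366 CPM in the siControl libraries. The replicates of each group lay close together and the groups did not overlap. The means were 308 ± 1.37 CPM with siADNP and 365 ± 4.36 CPM with siControl (SD, n = 3 each), or 84.4% of control (log2 fold change -0.25 ± 0.046, edgeR adjusted p = 9.44e-05). Exons of MRNIP, listed as C5orf45 and on the opposite strand, cover 20.7% of the exonic bases of SQSTM1. C5orf45 had 23.5 CPM with siADNP against 18.5 CPM with siControl and did not pass (log2 fold change 0.32 ± 0.13, edgeR adjusted p = 0.0634). NBR1, which acts with SQSTM1 on ubiquitylated cargo, had 110.3, 126 and 124 CPM in the siADNP libraries, against 142, 149 and 146 CPM in the siControl libraries. NBR1 stood at 82.6% of control without overlap (log2 fold change -0.28 ± 0.056, edgeR adjusted p = 2.24e-04). TAX1BP1, another ubiquitin-binding receptor, had 119, 122 and 123 CPM in the siADNP libraries, against 146, 149 and 136 CPM in the siControl libraries. It too was lower in every siADNP library (log2 fold change -0.25 ± 0.054, edgeR adjusted p = 4.69e-04). OPTN, optineurin, a receptor for ubiquitylated mitochondria and bacteria, had 25.3, 21.9 and 21.96 CPM in the siADNP libraries, against 28.8, 27.9 and 29.8 CPM in the siControl libraries. Its log2 fold change was -0.32 ± 0.093, with separate groups (edgeR adjusted p = 0.00768), and the call ended in DESeq2's Wald test alone (0.0539), over a range of 0.00458 to 0.0539. For CALCOCO2, the ubiquitin-binding receptor NDP52, the groups overlapped and the log2 fold change was -0.072 ± 0.057 (edgeR adjusted p = 0.370). BNIP3L and FUNDC1 sit in the outer mitochondrial membrane and bind LC3 directly. Their log2 fold changes were 0.011 ± 0.072 and 0.065 ± 0.081 (edgeR adjusted p = 0.929 and 0.589). The groups overlapped for BNIP3L, and FUNDC1 was higher in every siADNP library by a narrow margin. Whether the 4 receptors that fell differ in their change from those that did not was not tested.

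The transcription factors of the pathway showed no detectable difference. TFE3 had 12.3, 14.6 and 15.05 CPM in the siADNP libraries, against 16.03, 15.9 and 14.8 CPM in the siControl libraries. Its groups overlapped, with a log2 fold change of -0.16 ± 0.12 (edgeR adjusted p = 0.343). TFEB was weakly expressed, with 20, 20 and 23 reads in siADNP replicates 1 to 3, against 25, 22 and 31 in siControl replicates 1 to 3. TFEB had 2.57, 2.27 and 3.12 CPM in the siADNP libraries, against 2.80, 2.16 and 3.74 CPM in the siControl libraries. The groups overlapped, and with a log2 fold change of -0.12 ± 0.27 no difference was detectable at this depth (edgeR adjusted p = 0.784).

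Factors of the TFEB family bind the CLEAR element, the palindrome TCACGTGA with a further G before it and C after it, at whose centre lies the E-box CACGTG. RefSeq promoters (GRCh38.p14, 250 bases before to 50 after the start) were found for 36 of the 41 members and 27305 genes in all. Each motif reads the same on both strands, and the shorter ones lie within the longer. CACGTG was present in 2 of 36 members, or 5.56%, and in 7.43% of all promoters, and the whole CLEAR element in none of the members and in 0.381% of all promoters. The members with CACGTG were ATG3 and ATG14, both called lower, and their promoters are shown to place the matches, in capitals. ATG3 is at chr3:112561913-112562212 and ATG14 at chr14:55411781-55412080, both on the minus strand and written 5' to 3'.
ATG3 promoter: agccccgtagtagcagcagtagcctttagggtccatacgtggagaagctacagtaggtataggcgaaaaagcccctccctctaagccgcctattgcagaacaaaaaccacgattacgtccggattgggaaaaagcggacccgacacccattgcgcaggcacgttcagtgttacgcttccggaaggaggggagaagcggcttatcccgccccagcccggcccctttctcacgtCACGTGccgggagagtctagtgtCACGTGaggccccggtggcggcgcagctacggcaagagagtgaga
ATG14 promoter: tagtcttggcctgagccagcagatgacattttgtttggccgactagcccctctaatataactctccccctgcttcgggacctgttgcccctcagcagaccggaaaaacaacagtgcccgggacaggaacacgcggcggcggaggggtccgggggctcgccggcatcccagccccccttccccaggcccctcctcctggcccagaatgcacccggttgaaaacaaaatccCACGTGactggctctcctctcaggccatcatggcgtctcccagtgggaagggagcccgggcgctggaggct
The ATG3 window holds 2 matches, whose first bases lie 18 bases before the start and at base 6 of the transcript, counting the start as base 1, and the second of them lies within TCACGTGA, which 1.04% of all promoters hold. The ATG14 match begins 21 bases before the start. A match in these windows describes the sequence only. Only exact matches in these windows were counted, so an absence does not show that a gene lacks the element elsewhere or in a variant form.

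Closely spaced divergent starts were not limited to ATG12. In RefSeq, 10 members have a gene that starts on the opposite strand within 1000 bases and is transcribed away from them. Both genes were tested in 8 such pairs, and 7 are given here. In the pair not reported the member fell and the neighbour did not pass. ATG4A, itself not called, starts 236 bases from PSMD10, a proteasome assembly chaperone. PSMD10 had 90.7, 89.5 and 92.3 CPM in the siADNP libraries, against 114, 115 and 107 CPM in the siControl libraries. It fell with a log2 fold change of -0.30 ± 0.056 (edgeR adjusted p = 7.59e-05), beside -0.29 ± 0.12 for ATG4A. For the other pairs given, the neighbour did not pass. FBXO31, opposite MAP1LC3B, had a log2 fold change of -0.15 ± 0.078, and GSKIP, opposite ATG2B and listed under an older symbol, -0.12 ± 0.079. CCDC3, opposite OPTN, had 0.25 ± 0.12, a sign opposite to that of OPTN. THAP4, opposite ATG4B, had -0.019 ± 0.071, and HARBI1, opposite ATG13 and weakly expressed, -0.41 ± 0.30. ATG3 is a separate case, since its start and that of SLC35A5, a member of the nucleotide sugar transporter family, cross by 642 bases, and their exons share 151 bases in GENCODE. SLC35A5 fell with -0.34 ± 0.11 (edgeR adjusted p = 0.0179), beside -0.33 ± 0.055 for ATG3.

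**Figure D3:**
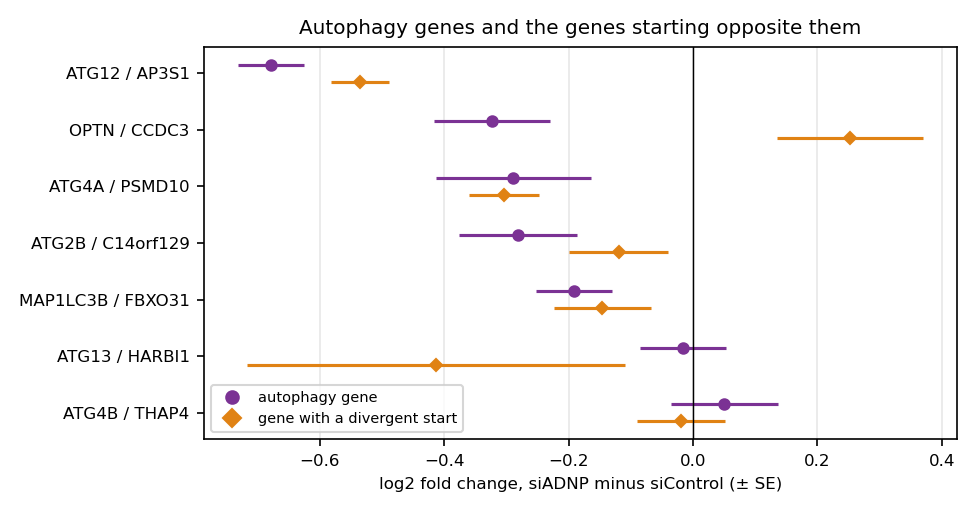
Log2 fold change (siADNP minus siControl) with its standard error for 7 autophagy genes (purple circles) and the gene that starts on the opposite strand within 1000 bases (orange diamonds). ATG12 and AP3S1 fell together, at -0.68 and -0.53, while OPTN and CCDC3 lie on opposite sides of 0, at -0.32 and 0.25.

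Across the whole table, genes called lower were poorer in GC than genes called higher, with median transcript GC contents of 43.0% and 54.0%. The 14 members that fell had a median of 44.7%, the 24 that did not pass 48.6%, and ULK1 64.2%. Within each of 4 equal bins of GC content the share of members called lower was above that of all genes. In the bin with the lowest GC, 4 of 8 members fell, where 23.7% of all genes did. In the next, 6 of 14 fell against 17.2%, then 3 of 8 against 9.65%, and in the bin with the highest GC 1 of 9 against 4.92%. That highest bin holds ULK1, the 1 of 9 members called higher there, where 23.8% of all genes were called higher. In the lowest bin 7.96% of all genes were called higher and 0 of 8 members. The share of all genes called lower was also larger at higher abundance. Among the most abundant of 4 equal bins of genes, 7 of 10 members were called lower where 22.9% of all genes were. The bin below it had 3 of 12 against 17.9%. The next had 4 of 15 against 9.80%, and the least abundant 0 of 2 against 4.32%. With a correction for GC content, 13 members were called lower and 1 higher, beside 13.9% and 13.05% of all genes.

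**Figure D4:**
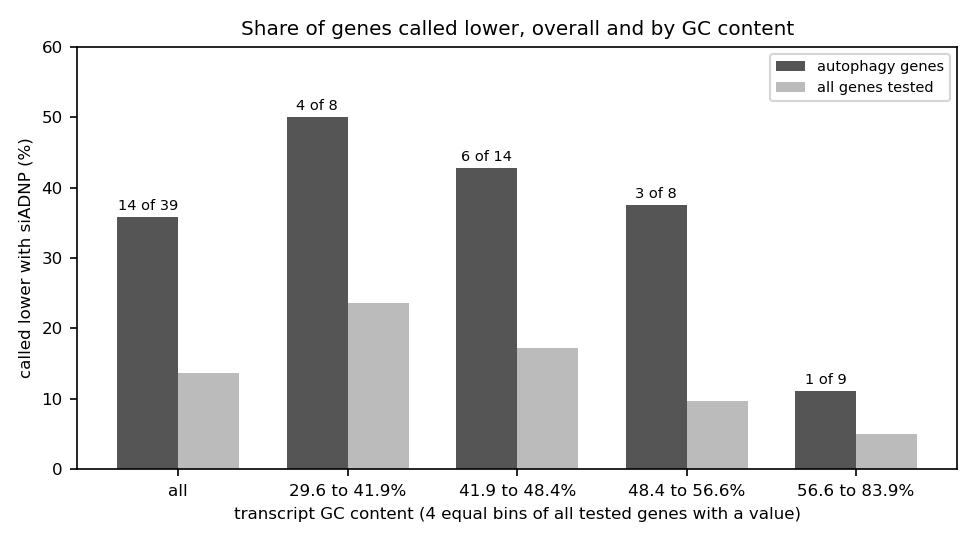
Share of genes called lower with siADNP (edgeR, adjusted p under 0.05), for the autophagy genes (dark bars, with counts) and all genes tested (light bars), overall and in 4 equal bins of transcript GC content. The dark bar is the taller in each bin, with 4 of 8, 6 of 14, 3 of 8 and 1 of 9 members from low to high GC; each bin holds few members.

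Genes of the pathway outside the 41 were read from 5 further lists. Of 97 genes, 95 were tested, and 63 of these did not pass. There were 21 lower and 11 higher, or 22.1% and 11.6%, beside 13.7% and 14.6% of all genes. Their median log2 fold change was -0.020, beside -0.0013 for all genes. Upstream regulators moved in both directions, with 4 of 19 higher and 5 lower, beside 14.6% and 13.7% of all genes. The count of higher calls was 2 in DESeq2's Wald test, with the GC correction, and with the GC correction and replicate block. FOXO3, a transcription factor of starvation responses, rose to 87.5 CPM with siADNP against 58.1 CPM with siControl (log2 fold change 0.59 ± 0.062, edgeR adjusted p = 2.13e-09), and DDIT4, an inhibitor of mTORC1 signalling, rose with 0.64 ± 0.12, although its groups overlapped. The DDIT4 call ended in DESeq2's Wald test (adjusted p = 0.164), over a range of 7.81e-22 to 0.164. The other upstream genes called higher were the mTORC1 subunits RPTOR and MLST8, without overlap between the groups. They rose with 0.26 ± 0.056 and 0.20 ± 0.064 (edgeR adjusted p = 5.46e-04 and 0.0155). MTOR, the kinase of mTORC1, fell with -0.15 ± 0.050 (edgeR adjusted p = 0.0221). The AMPK subunits PRKAG1, PRKAB2 and PRKAB1 fell with -0.43 ± 0.066, -0.46 ± 0.086 and -0.47 ± 0.12. The AMPK subunits PRKAA1 and PRKAA2 did not pass, with overlapping groups and log2 fold changes of 0.042 ± 0.064 and -0.042 ± 0.12. AMPK, the energy-sensing kinase, activates ULK1.

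Among further core and nucleation genes, none of 18 rose and 5 fell, beside 14.6% and 13.7% of all genes. DESeq2's Wald test called 3 of them lower, where it called 8.88% of all genes lower. MCL1, a BCL2 family protein that can bind beclin, had 149 CPM with siADNP against 185 CPM with siControl (log2 fold change -0.32 ± 0.055). ULK3, a kinase related to ULK1, fell with -0.37 ± 0.093, the WIPI family gene WDR45B with -0.23 ± 0.054, and RUBCN, a negative regulator of autophagosome maturation, with -0.26 ± 0.076, though RUBCN missed the threshold in DESeq2's Wald test (0.0513). Of 15 transport and fusion genes, 4 fell and 1 was called higher, beside 13.7% and 14.6% of all genes. The gene called higher, PLEKHM1, lay close to the threshold (log2 fold change 0.23 ± 0.087, edgeR adjusted p = 0.0476). In 12 of 16 alternatives no gene of that list was called higher. The falls included STX17, the autophagosomal SNARE, with -0.31 ± 0.064, its lysosomal partner VAMP8 with -0.37 ± 0.10, TECPR2 with -0.42 ± 0.079 and VPS33A of the HOPS tethering complex with -0.26 ± 0.076. The VPS33A call ended in DESeq2's Wald test (adjusted p = 0.0533) and without siADNP replicate 3 (0.0568). Of 18 tested receptors and mitophagy genes, 4 fell and none rose, beside 13.7% and 14.6% of all genes. With the GC correction 2 were called higher, and 1 with the GC correction and replicate block. Those that fell include the ferritin receptor NCOA4 with -0.30 ± 0.051, TBK1, a kinase that phosphorylates OPTN and SQSTM1, with -0.31 ± 0.057, and the mitochondrial receptor BCL2L13 with -0.24 ± 0.067. SEC62, a receptor for endoplasmic reticulum, fell with -0.19 ± 0.060, a call that ended in 5 of 16 alternatives.

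Lysosomal genes described as carrying CLEAR elements were called in both directions, with 6 of 25 tested higher and 3 lower, or 24% and 12%, beside 14.6% and 13.7% of all genes. With the GC correction, alone or with the replicate block, 3 were higher and 3 lower. DESeq2's Wald test called 1 of them lower, as did edgeR without siControl replicate 1 or 3. LAMP2, a lysosomal membrane protein, had 89.03 CPM with siADNP against 54.2 CPM with siControl (log2 fold change 0.72 ± 0.063, edgeR adjusted p = 4.32e-11). The proton pump accessory subunit ATP6AP1 rose with 0.34 ± 0.072 and the protease cathepsin D, CTSD, with 0.32 ± 0.067. The CTSD call ended with the GC correction (adjusted p = 0.0702, and 0.0863 with the replicate block as well), over a range of 1.84e-04 to 0.0863. The difference between this list and the members was not tested.

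**Figure D5:**
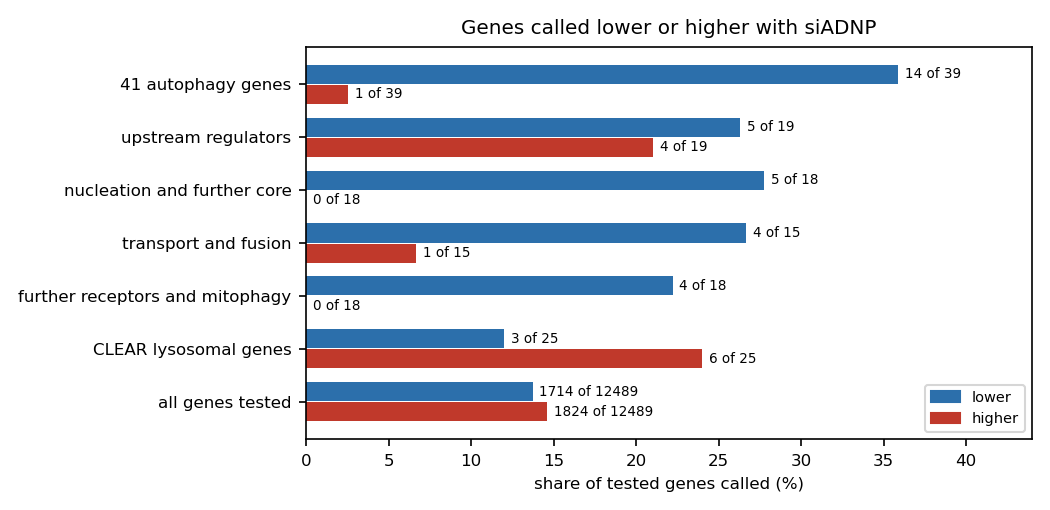
Share of tested genes called lower (blue, upper bar) and higher (red, lower bar) with siADNP, for the 41 autophagy genes, 5 further lists and all genes, with counts beside the bars. The autophagy genes show 14 of 39 lower and 1 of 39 higher, and the lysosomal genes 3 of 25 lower and 6 of 25 higher.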

How the data were processed

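RNA of 6 HCT116 samples was sequenced from total RNA libraries. The authors deposited raw read counts per gene symbol; per the submitters' processing notes, STAR, HTSeq and DESeq2 were used on hg19, with no versions, and neither the annotation nor the strand setting was found there. A second deposited table holds log2-like variance-stabilized values, used only in an alternative test. Of all reads in the count table, the line for reads assigned to no counted feature took 53.5% to 55.7% per library. Non-unique reads took 17.4% to 17.9% and ambiguous reads 0.455% to 0.500%. These lines were left out.

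Counts were tested with edgeR 4.0.16 (TMM, filterByExpr with minimum count 10, quasi-likelihood test, two-sided, Benjamini-Hochberg over 12489 genes), siADNP minus siControl, in R 4.3.3. Standard errors were derived from the log2 fold change and its F statistic. Alternatives used DESeq2 1.42.0, limma 3.58.1, other scalings and filters, offsets for GC and length, a replicate block and leaving out each library. GC and length come from the longest GENCODE release 29 transcript, for 97.0% of tested genes; builds differ, so hg19 coordinates are not given. The fits were run on simulated data that gave every gene the same variability beyond sampling noise, with changes planted only in well-counted genes. Changes as small as the smallest called here were not simulated. Libraries of a group differed by more than sampling noise, with a chi-square per degree of freedom of at least 1.77. The members and lists were chosen with earlier results of these data known. Named genes are all members, and of each further list up to 4 with the smallest p. AP3S1, PSMD10, SLC35A5, ARSG, RPS23, MRNIP and the other neighbours, and PLEKHM1, PRKAB1, PRKAA1, PRKAA2, RPTOR, MLST8 and MTOR, were named after their values were seen. Some tested genes that these rules name are not reported here.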

Additional observations from a re-analysis of the deposited data

How the results depend on the processing

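The count of members called lower was 14, and 7 in DESeq2's Wald test. Leaving out 1 library at a time gave 9 (without siControl replicate 2) to 12. The other alternatives gave 12 to 16, the highest with the length correction, and each of the 16 alternatives called ULK1 and no other member higher. The share of members called lower was above that of all genes in each alternative, with 17.95% against 8.88% in DESeq2. The median of the members stayed below 0 in each alternative. It ran from -0.19 to -0.13 in the fits to counts. With limma on the variance-stabilized values, whose scale differs from that of the counts, it was -0.095. The median of all genes ran from -0.015 to 0.023. Of the 15 called members, 8 passed in all 16 alternatives: ATG3, ATG12, ATG16L1, PIK3C3, SQSTM1, NBR1, TAX1BP1 and ULK1. Of the members not called, BECN1 and GABARAP passed with the length correction (adjusted p = 0.0215 and 0.0353), and GABARAP also without siControl replicate 1 (0.0347). The further lists gave 11 genes called higher, 7 in DESeq2's Wald test, 7 with the GC correction and 6 with the GC correction and replicate block. Without 1 library each they gave 8 to 11 higher and 16 to 20 lower. ADNP passed in all 16. The cause of these differences was not tested.

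The replicate numbers are shared between the groups, but same-numbered samples did not deviate together, with correlations of 0.047, -0.066 and -0.040 across 10658 genes, so the numbers were not taken as pairs. Samples of the 2 groups with different numbers had correlations from -0.054 to 0.097, the highest for siADNP replicate 2 with siControl replicate 3. With the replicate block 12 members were called lower and 1 higher, beside 12.35% and 13.56% of all genes. Depth limits TFEB, ATG16L2, ATG9B and MAP1LC3A.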
